A study of Mus musculus with 6 samples.

Results

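The members described here are 43 genes of DNA damage signaling and repair, taken by symbol from a fixed list of checkpoint kinases and genes of homologous recombination, the Fanconi anemia pathway, end joining, single-strand break repair and mismatch repair. No measured value entered the rule. All 43 had a row among the 24499 genes of the count table, and all 43 were among the 13296 genes with enough counts to test. Cells read DNA damage through the kinases ATM, which answers mainly to double-strand breaks, and ATR, which answers to single-stranded DNA at stalled forks. Breaks are then repaired by homologous recombination, which copies a sister chromatid in S and G2 phase, or by end joining, which ligates ends throughout the cycle. In germinal center B cells these pathways deal both with replication at high speed and with the lesions made in immunoglobulin genes during class switching and hypermutation.

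RNA was sequenced from YFP+ induced germinal center B cells (iGCBs) in 3 cKO and 3 control samples, from mice on the C57BL/6J background. Naive splenic B cells were grown for 3 days with IL-4 on irradiated 40LB cells, a fibroblast line that presents CD40 ligand and BAFF, and YFP+ cells were sorted. The cKO mice were Eif3e fl/fl with Cγ1Cre and a Rosa26 YFP reporter behind a stop cassette that Cre removes, whereas control mice carried Cγ1Cre and the reporter without the floxed Eif3e alleles. Eif3e encodes a subunit of translation initiation factor eIF3. Cγ1Cre is driven by transcription of the immunoglobulin γ1 constant region, so that deletion starts only after B cell activation, and YFP marks cells in which Cre has acted on the reporter rather than on Eif3e itself. Mouse age and sex and the number of mice behind each library were not given for these samples, so p-values measure the spread between these libraries. The comparison asks how the level of each repair transcript in these cells differs once Eif3e is deleted.

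Libraries held between 39079582 and 45504570 counts. Levels are given as CPM, that is, counts scaled to the size of each library. Eif3e stood at 173, 149.8 and 152 CPM in cKO and at 424, 401 and 392 CPM in control, or 39% of control (log2 fold change -1.36 ± 0.066 (SE), adjusted p = 6.71e-07). The 6 B cell markers summed to 3887 to 4209 CPM in every library, and all 6 were detected. Of 13 fibroblast markers, which the feeder cells could bring in, Postn and Lum were at 0 in all libraries and the summed level was 95.7 to 109.9 CPM in cKO and 57.3 to 116 CPM in control. Of the 9 tested, 2 were called, both higher in cKO, where 24.1% of all genes tested were called higher. These were Col5a1 (305% of control, adjusted p = 1.85e-04) and Fn1 (210.1%, adjusted p = 6.51e-04), both without overlap. The log2 fold changes of 6 of the 9 were negative. The 5 T cell markers summed to 23.3 to 25.7 CPM in cKO and 36.3 to 39.7 CPM in control, nearly all of it Lck, with Cd3e at 0. The 5 myeloid markers summed to 4.08 to 6.06 CPM in cKO and 1.22 to 2.45 CPM in control, with Cd14 at 0. Of the 2 tested, Adgre1 was called higher (390% of control, adjusted p = 0.00203). The other, Itgam, had a lower mean, 0.18 CPM in cKO and 0.385 CPM in control, and was not called (47.3% of control, adjusted p = 0.204). Within the B lineage, the 5 germinal center markers summed to 262 to 272 CPM in cKO and 324 to 370.4 CPM in control, and the 4 plasma cell markers to 352 to 398 CPM in cKO and 612 to 733 CPM in control. Most of the plasma cell sum was Mzb1 (65.2% of control), and the others went both ways, with Jchain at 6.24%, Prdm1 at 45.6% and Sdc1 at 302% of control, each called. What these differences contribute to the repair genes was not tested. Xist, the RNA of the inactive X chromosome in females, was at 1184 CPM in cKO replicate 2 and at 1305 and 1804 CPM in control replicates 1 and 2, and at 0 to 0.389 CPM in the other libraries. Sex is therefore mixed within each group, and a call that is lost with Xist level in the model is named as such beside the gene.

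Most repair transcripts differed little between the groups. Among the 43 members, 10 were lower in cKO at an adjusted p under 0.05 and 8 were higher, while 25 were not called. Without control replicate 1, 6 members were lower and 6 higher, where 21.0% of all genes tested in that fit were lower and 20.6% higher. With every library, the share called lower was 23.3%, beside 24.5% of all genes tested, and the share called higher was 18.6%, beside 24.1% of all genes tested. The median log2 fold change of the members was -0.13, against -0.00402 for all genes tested, and 27 of 43 values were negative. The sizes were small. Of the members, 41 of 43 (95.3%) lay within 1.5-fold of control, as did 9370 of 13296 genes tested (70.5%). The members, with control means from 2.51 to 901 CPM, are not matched in level to that background. When a change of over 1.5-fold was asked for as well, 0 members were lower (0 with an unadjusted p under 0.05 by edgeR's quasi-likelihood test, and 0 by DESeq2) and 2 were higher, Rad1 and Lig3 (2 by DESeq2). Across all genes tested those cutoffs called 10.6% lower and 10.4% higher. The 3 cKO and the 3 control values did not overlap in 28 of 43 members, 19 of them lower and 9 higher, beside 58.7% of all genes tested. In bulk samples, less RNA of a gene per cell and fewer cells that express it cannot be told apart. The members lie on 16 chromosomes, and 16 of 43 share exonic bases with a gene annotated on the opposite strand (GENCODE M21, GRCm38), 11 of them with a gene that was tested. Whether counting used strand is not given in the sources used here. Such overlaps are stated beside Rad9a, Rad54l, Fanca, Fanci, Xrcc6 and Lig3. The others are Atr, Rbbp8 (3.21% of exonic bases), Palb2, Brca2 (0.301%), Xrcc3, Rad54b, Fancc, Fancd2, Xrcc4 and Msh3, with the largest in Fancc (16.4%, with Gm16133). The part of these overlaps in the values was not tested.

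**Figure D1:**
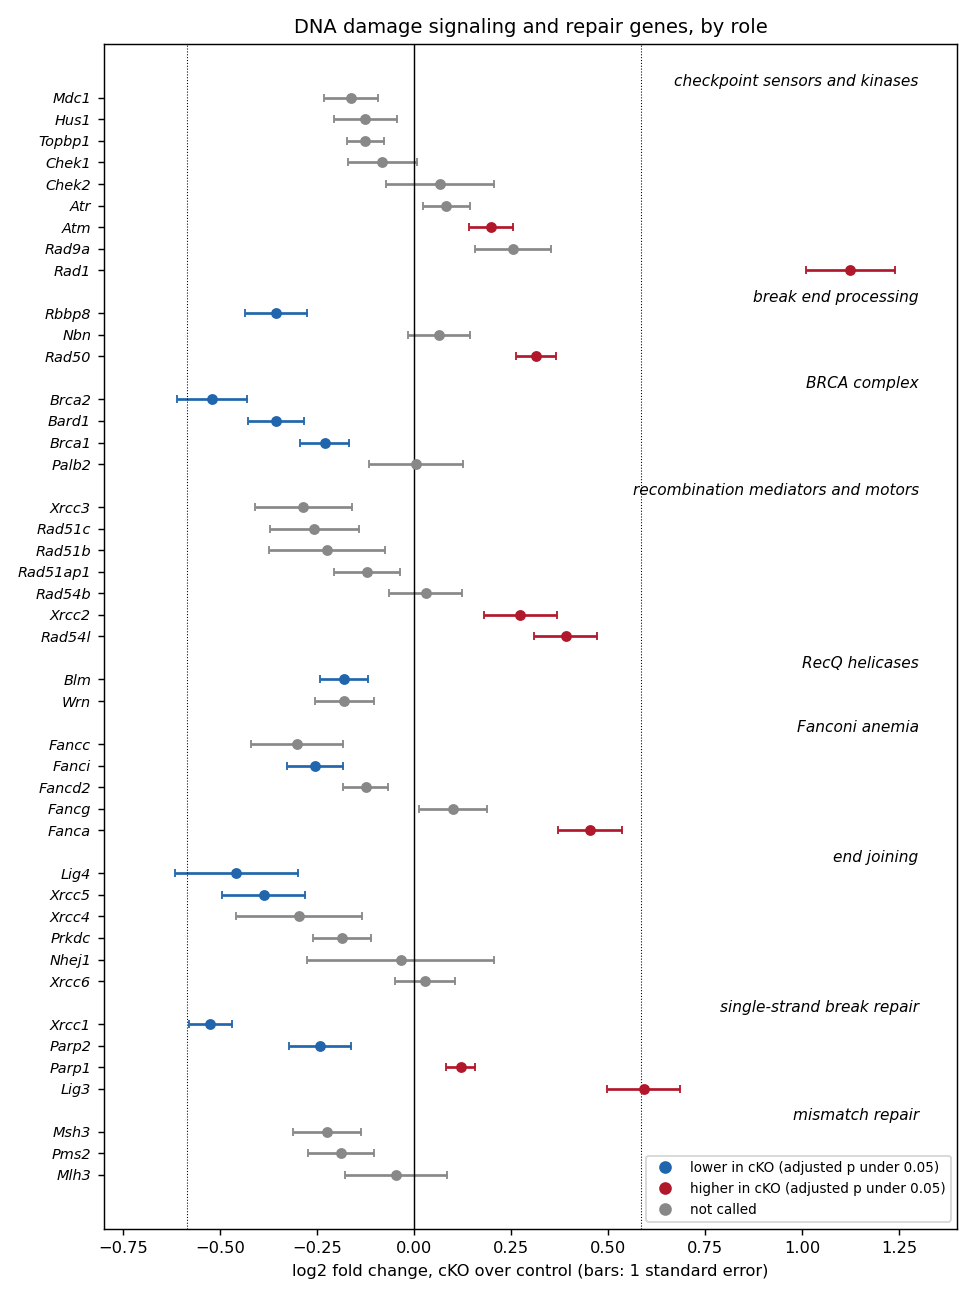
Log2 fold change of cKO over control (x axis) for each of the 43 members, grouped by role, with bars of 1 standard error from the fit to 3 cKO and 3 control libraries. Dotted lines mark 1.5-fold; Rad1 at 1.12 and Lig3 at 0.59 are the 2 members beyond them.

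Many genes of replication and repair carry E2F sites in their promoters, and these sites are shown for the members that hold an exact match. RefSeq promoters of 300 bases (250 before the start site and 50 after it, GRCm38.p6) were given for 34 of the 43 members. The E2F form TTTCCCGC, searched on both strands, lay in 7 of 34 member promoters (20.6%), beside 1.24% of the promoters of all genes and 2.39% of those of the genes tested. The form TTTGGCGC lay in 1 of 34 (2.94%), beside 0.585% of all genes and 1.16% of genes tested. The matches read, 5′ to 3′ on the strand of the gene, with the motif or its reverse complement in capitals and the position of its first base counted from the start site:
Bard1 (chr1:71103163-71103192, minus strand, position -209): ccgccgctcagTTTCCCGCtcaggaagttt
Fancg (chr4:43010335-43010364, minus strand, position -52): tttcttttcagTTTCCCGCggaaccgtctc
Mdc1 (chr17:35841471-35841500, plus strand, position -16): tcttcagcctgTTTCCCGCcggtagccgca
Brca2 (chr5:150522442-150522471, plus strand, position -168): tttaggccacaGCGGGAAAcagacacacac
Chek2 (chr5:110839820-110839849, plus strand, position -152): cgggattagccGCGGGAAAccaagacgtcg
Rad51c (chr11:87404941-87404970, minus strand, position -5): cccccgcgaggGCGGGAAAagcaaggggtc
Xrcc6 (chr15:82016312-82016341, plus strand, position -46): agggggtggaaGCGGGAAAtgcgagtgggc
Msh3 (chr13:92355187-92355216, minus strand, position -202): ttgccgtcaagTTTGGCGCgaaatcgcagc

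Among the genes with these matches, Bard1 (-0.36) and Brca2 (-0.52) were called lower, while the log2 fold changes of -0.16 (Mdc1), -0.26 (Rad51c), -0.22 (Msh3), 0.03 (Xrcc6), 0.07 (Chek2) and 0.10 (Fancg) were not called. The element TTTGAA, the cell cycle genes homology region, lay in 3 of 34 member promoters (8.82%; Bard1, Hus1 and Rad51b), beside 20.2% of all genes and 14.3% of genes tested. CCAAT lay in 17 of 34 (50%), beside 41.1% of all genes and 43% of genes tested. These are matches of letters in a fixed window, and binding was not measured.

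Among the checkpoint sensors and kinases, 2 of 9 members were higher in cKO (24.1% of all genes tested were) and 0 were lower by edgeR's quasi-likelihood test (2 lower at an unadjusted p under 0.05, and 0 by DESeq2). Rad1, which encodes the RAD1 ring subunit of the 9-1-1 clamp that is loaded at damaged DNA to activate ATR, had the largest difference of all members. Its level was 25.3, 28.2 and 29 CPM in cKO against 14, 12.9 and 11 CPM in control. Each cKO library stood well above each control library. The mean was 27.5 ± 1.98 CPM against 12.6 ± 1.52 CPM (SD, n = 3 each), or 218% of control (log2 fold change 1.12 ± 0.11 (SE), adjusted p = 3.10e-05). It was called under all 15 alternative settings, and it was the only member called in a test against a 1.5-fold change (adjusted p = 0.0022), which called 4.36% of all genes tested lower and 4.39% higher. The other 2 clamp subunits were not called. Hus1 was at 25.5, 26.1 and 26.4 CPM in cKO against 27.1, 30 and 28 CPM in control (log2 fold change -0.13 ± 0.082 (SE), adjusted p = 0.234). Rad9a was at 31.4, 26.9 and 25.3 CPM in cKO against 23.4, 23.8 and 23 CPM in control (log2 fold change 0.25 ± 0.098 (SE), adjusted p = 0.0543). The Rad9a groups did not overlap, and 9.53% of its exonic bases are shared with Ppp1ca on the other strand. Rad9a passed an adjusted p of 0.05 with DESeq2 size factors (0.0474), with a stricter count filter (0.0412) and without cKO replicate 3 (0.0393).

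The clamp transcripts were also compared as ratios within each library. Rad1 over Hus1 was 0.992, 1.08 and 1.1 in cKO and 0.517, 0.430 and 0.391 in control. Rad1 over Rad9a was 0.804, 1.05 and 1.15 in cKO and 0.598, 0.543 and 0.478 in control. Neither ratio overlapped between groups, and the exact permutation test (two-sided) gave p = 0.1 for each, the smallest value that 3 against 3 libraries allow. These and the further ratios, 6 pairs in all, were chosen after the values were seen, and Benjamini-Hochberg adjustment over the 6 leaves each p at 0.1.

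Rad1 lies at chr15:10486018-10499063 (GRCm38, plus strand) and starts 71 bp from Brix1, a ribosome assembly factor gene that runs the other way. Brix1 rose from 51.5 to 61.6 CPM (log2 fold change 0.26 ± 0.075 (SE), adjusted p = 0.0157). The 70 bases between the 2 start sites (chr15:10485948-10486017), chosen after the values were seen because they separate a member with a large difference from a neighbour with a small one, hold none of the motifs searched:
Rad1 to Brix1: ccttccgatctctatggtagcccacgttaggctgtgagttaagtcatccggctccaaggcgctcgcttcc

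Atm, the kinase of the double-strand break response, was at 112, 105 and 112 CPM in cKO against 95.3, 99.6 and 91.9 CPM in control. The groups did not overlap, and the cKO level was 115% of control (log2 fold change 0.20 ± 0.056 (SE), adjusted p = 0.014), called under all 15 alternatives. The remaining members of this group were not called. Atr, the kinase of the replication stress response, had a log2 fold change of 0.08 ± 0.061 (SE) (adjusted p = 0.294), and Topbp1, which activates it, -0.13 ± 0.049 (SE) (adjusted p = 0.0547). Topbp1 groups did not overlap, and it was called with total-count scaling (adjusted p = 0.0479), with halved counts (0.0473) and without control replicate 2 (0.038). The effector kinases Chek1 and Chek2 were at -0.08 ± 0.088 (SE) (adjusted p = 0.475) and 0.07 ± 0.14 (SE) (adjusted p = 0.726). Mdc1, the adaptor that binds phosphorylated H2AX, was at -0.16 ± 0.069 (SE) (adjusted p = 0.0743) and was called in 1 of 15 alternatives, without control replicate 3 (adjusted p = 0.0348).

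The genes of break end processing differed among themselves. Rad50, part of the MRN complex that holds and trims ends, was higher, with 109, 110.3 and 103 CPM in cKO against 86.9, 84.8 and 87.7 CPM in control (log2 fold change 0.31 ± 0.052 (SE), adjusted p = 6.84e-04). Its complex partner Nbn was not called (log2 fold change 0.06 ± 0.08 (SE), adjusted p = 0.543). Rbbp8, which encodes CtIP and starts resection together with MRN, was lower, at 46, 39.4 and 43.4 CPM in cKO against 57.5, 51.7 and 55.5 CPM in control (log2 fold change -0.36 ± 0.08 (SE), adjusted p = 0.00422). The Rad50 and the Rbbp8 values did not overlap between groups, and both calls held under all 15 alternatives.

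In the BRCA complex, 3 of 4 members were lower (24.5% of all genes tested were) and 0 were higher by edgeR (0 higher at an unadjusted p under 0.05, and 0 by DESeq2). Brca2 (chr5:150522630-150570329, plus strand), which acts in strand invasion from resected DNA, was at 51.9, 45.1 and 40.1 CPM in cKO against 66.9, 65.1 and 64.9 CPM in control, or 69.6% of control (log2 fold change -0.52 ± 0.09 (SE), adjusted p = 8.83e-04). Every cKO library lay below every control library, and without cKO replicate 1 the value passed 1.5-fold (-0.62). Bard1, the partner of BRCA1 in a ubiquitin ligase, was at 32.7, 32.6 and 33.3 CPM in cKO against 43.3, 41.9 and 41 CPM in control (log2 fold change -0.36 ± 0.072 (SE), adjusted p = 0.0023). The 3 cKO libraries lay within 1 CPM of each other for Bard1 and all lay below control. Brca1 was at 89.6, 79.7 and 84.3 CPM in cKO against 103, 101 and 93.6 CPM in control (log2 fold change -0.23 ± 0.063 (SE), adjusted p = 0.0118). Calls of Brca2 and Bard1 held under all 15 alternatives, whereas that of Brca1 was lost without cKO replicate 2 (adjusted p = 0.0646) or control replicate 1 (adjusted p = 0.0615). Palb2, which bridges BRCA1 and BRCA2, was at 11.2, 10.9 and 11.8 CPM in cKO against 12, 11.9 and 9.86 CPM in control, with overlapping groups (log2 fold change 0.00 ± 0.12 (SE), adjusted p = 0.978). The ratio of Bard1 to Brca1 was 0.365, 0.408 and 0.395 in cKO and 0.421, 0.414 and 0.438 in control (exact permutation p = 0.1, two-sided).

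Of the mediators and motors of recombination, 2 of 7 were higher (24.1% of all genes tested were) and 0 were lower by edgeR (2 lower at an unadjusted p under 0.05, and 0 by DESeq2). Rad54l, a motor protein of strand exchange, was at 64.6, 63.7 and 57.5 CPM in cKO against 48.5, 42.8 and 50.5 CPM in control (log2 fold change 0.39 ± 0.081 (SE), adjusted p = 0.00264). Its groups did not overlap and the call held under all 15 alternatives. Of its exonic bases, 15.4% are shared with Lrrc41 on the other strand, whose log2 fold change was 0.18 (adjusted p = 0.0665). Xrcc2, a recombination mediator, was at 23.7, 25.4 and 27.9 CPM in cKO against 20.9, 22.2 and 20.7 CPM in control (log2 fold change 0.27 ± 0.093 (SE), adjusted p = 0.0336), with no overlap. This call was lost with Xist level in the model (adjusted p = 0.0568) and in 5 of 6 fits without 1 library, those without cKO replicates 2 (0.0693) and 3 (0.134) and control replicates 1 (0.0837), 2 (0.0519) and 3 (0.0919). The related mediators Rad51b, Rad51c and Xrcc3 had negative values that did not pass, of -0.22 ± 0.15 (SE) (adjusted p = 0.246), -0.26 ± 0.12 (SE) (adjusted p = 0.0911) and -0.29 ± 0.12 (SE) (adjusted p = 0.083). Xrcc3 was called with the replicate number as a block (adjusted p = 0.0496). Rad51ap1, an accessory protein of recombination, was at -0.12 ± 0.084 (SE) (adjusted p = 0.265), and Rad54b, related to Rad54l, at 0.03 ± 0.094 (SE) (adjusted p = 0.821). Rad54b shares 35.8% of its exonic bases with Fsbp on the same strand.

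Of the RecQ helicases, which unwind joined and branched DNA, Blm was lower, at 62.8, 63.5 and 58.2 CPM in cKO against 67.7, 72.8 and 68.6 CPM in control (log2 fold change -0.18 ± 0.062 (SE), adjusted p = 0.0347). The groups did not overlap, yet the call was not made by DESeq2 (adjusted p = 0.0614) or with Xist level in the model (0.0766), and was lost without cKO replicate 1 (0.0541), 2 (0.0529) or 3 (0.107) and without control replicate 1 (0.0528) or 2 (0.101). Wrn had nearly the same value and missed the threshold (log2 fold change -0.18 ± 0.075 (SE), adjusted p = 0.0718). It passed without cKO replicate 1 (adjusted p = 0.0181) and with Xist level in the model (0.0443).

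The Fanconi anemia pathway repairs interstrand crosslinks through a core complex that ubiquitinates the FANCD2 and FANCI pair. Fanca, of the core complex, was higher, at 69.7, 83.2 and 83.1 CPM in cKO against 53.3, 60.8 and 58.4 CPM in control (log2 fold change 0.45 ± 0.083 (SE), adjusted p = 0.00121). All cKO values exceeded all control values, and the call held under all 15 alternatives. It shares 10.5% of its exonic bases with Zfp276 on the other strand, whose log2 fold change was 0.36 (adjusted p = 0.0267). The core members Fancc and Fancg were not called, at -0.30 ± 0.12 (SE) (adjusted p = 0.0562) and 0.10 ± 0.088 (SE) (adjusted p = 0.377), and Fancc passed in 1 of 15 alternatives, without control replicate 2 (adjusted p = 0.0261). Fanci was lower, at 43.5, 42.6 and 40.5 CPM in cKO against 53.5, 49.5 and 48.1 CPM in control (log2 fold change -0.26 ± 0.073 (SE), adjusted p = 0.0146). Fancd2 was at 60.6, 63.4 and 60.5 CPM in cKO against 68.4, 68.1 and 64.7 CPM in control (log2 fold change -0.13 ± 0.058 (SE), adjusted p = 0.101). The Fanci call was lost without cKO replicate 3 (adjusted p = 0.061) or control replicate 1 (0.0628). About 16% of its exonic bases are shared with Polg on the other strand, which was lower too (log2 fold change -0.46, adjusted p = 1.51e-04). The ratio of Fanci to Fancd2 was 0.719, 0.671 and 0.669 in cKO and 0.781, 0.728 and 0.744 in control (exact permutation p = 0.1, two-sided).

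In end joining, 2 of 6 members were lower (24.5% of all genes tested were) and 0 were higher by edgeR (0 higher at an unadjusted p under 0.05, and 0 by DESeq2). Xrcc5, which encodes Ku80, was at 30.2, 33.7 and 25.3 CPM in cKO against 38.9, 37.3 and 40.5 CPM in control (log2 fold change -0.39 ± 0.11 (SE), adjusted p = 0.0126). Its call held under all 15 alternatives. Xrcc6, which encodes Ku70, the other subunit of the Ku ring that binds broken ends, was at 53.9, 51.5 and 58.2 CPM in cKO against 57.1, 53.3 and 50 CPM in control, with overlapping groups (log2 fold change 0.03 ± 0.076 (SE), adjusted p = 0.793). The ratio of Xrcc5 to Xrcc6 was 0.561, 0.655 and 0.435 in cKO and 0.680, 0.701 and 0.811 in control, with no overlap (exact permutation p = 0.1, two-sided). Xrcc6 shares 7.69% of its exonic bases with Desi1 on the other strand, which was higher (log2 fold change 0.50, adjusted p = 4.89e-05). Lig4, the ligase of this pathway, was at 8.73, 10.2 and 10.6 CPM in cKO against 13.3, 16.5 and 10.9 CPM in control (log2 fold change -0.46 ± 0.16 (SE), adjusted p = 0.0356). The highest cKO value nearly reached the lowest control value. The Lig4 call was lost with Xist level in the model (adjusted p = 0.113) and without cKO replicate 1 (0.118) or 2 (0.0724) and control replicate 1 (0.0708) or 2 (0.144), whereas without control replicate 3 it passed 1.5-fold (log2 fold change -0.59). The kinase gene Prkdc and the ligase partners Xrcc4 and Nhej1 had values of -0.19 ± 0.075 (SE) (adjusted p = 0.0643), -0.30 ± 0.16 (SE) (adjusted p = 0.159) and -0.04 ± 0.24 (SE) (adjusted p = 0.918) and were not called. Prkdc passed in 1 of 15 alternatives, without control replicate 3 (adjusted p = 0.0147). Nhej1, at 2.09 to 2.98 CPM, was the lowest member in CPM. Per exonic length in control Mlh3 was the lowest, at 1.47 CPM per kilobase, with Nhej1 at 2.25.

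All 4 members of single-strand break repair were called, 2 in each direction, where 24.5% of all genes tested were called lower and 24.1% higher. Xrcc1 (chr7:24546289-24573440, plus strand), the scaffold of this pathway, was at 134, 120 and 131 CPM in cKO against 184, 182 and 188 CPM in control, or 69.4% of control (log2 fold change -0.53 ± 0.055 (SE), adjusted p = 3.61e-05). Lig3 (chr11:82781108-82804274, plus strand), the ligase that binds XRCC1, was at 44.1, 50.3 and 46.5 CPM in cKO against 31, 34.4 and 28.1 CPM in control, or 151% of control (log2 fold change 0.59 ± 0.094 (SE), adjusted p = 5.23e-04). Neither gene overlapped between groups, and both calls held under all 15 alternatives. The ratio of Lig3 to Xrcc1 was 0.330, 0.419 and 0.355 in cKO and 0.168, 0.189 and 0.150 in control (exact permutation p = 0.1, two-sided). Lig3 sits at the 1.5-fold limit: without cKO replicate 2 or without control replicate 3, 1 member passed both cutoffs in place of 2, with a Lig3 log2 fold change of 0.54 and 0.52. Of its exonic bases, 25.1% are shared with Rffl on the other strand, whose log2 fold change was 0.06 (adjusted p = 0.68).

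The 2 poly(ADP-ribose) polymerases, which mark single-strand breaks, also differed in direction. Parp1 was by far the most abundant member per exonic length, at 170.2 CPM per kilobase in control, followed by Topbp1 at 32.3 and Xrcc1 at 31.7 CPM per kilobase. Its level was 966, 981 and 989 CPM in cKO against 898, 894 and 911 CPM in control (log2 fold change 0.12 ± 0.038 (SE), adjusted p = 0.0255), a difference of 8.64%. Parp2 was at 45.8, 54.1 and 47.2 CPM in cKO against 55.8, 60.9 and 57.4 CPM in control (log2 fold change -0.24 ± 0.079 (SE), adjusted p = 0.0275). Both calls were fragile. That of Parp1 was lost with Xist level in the model (adjusted p = 0.0501), with the replicate number as a block (0.0523) and without cKO replicate 2 (0.0577) or 3 (0.0724) or control replicate 1 (0.0777) or 2 (0.0622). That of Parp2 was lost with Xist level in the model (0.0526) and without cKO replicate 1 (0.101) or 3 (0.0874) or control replicate 2 (0.0754).

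**Figure D2:**
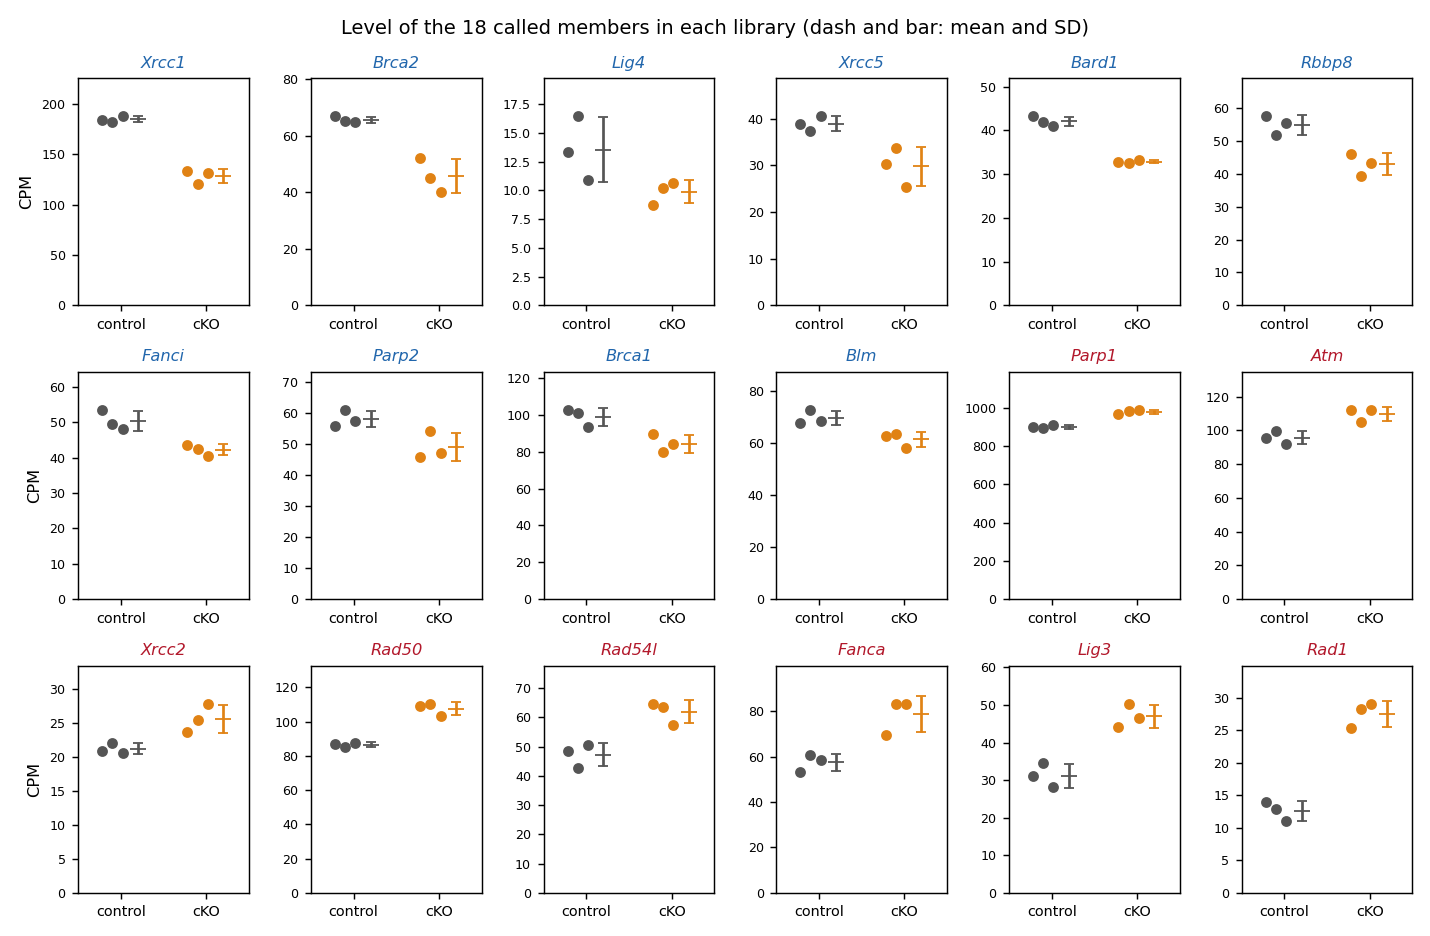
Level in CPM (y axis, from 0) of the 18 called members in each of the 3 control and 3 cKO libraries, with the group mean as a dash and the SD as a bar. Blue names are lower in cKO and red names higher; Rad1 shows the widest gap relative to control, with 25.3 to 29 CPM in cKO and 11 to 14 CPM in control.

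Of the 3 mismatch repair members, 0 were called in either direction by edgeR's quasi-likelihood test (2 lower and 0 higher at an unadjusted p under 0.05, and 0 by DESeq2). Msh3, which recognises larger loops, was at -0.22 ± 0.087 (SE) (adjusted p = 0.0559). Pms2, a mismatch repair nuclease, was at -0.19 ± 0.084 (SE) (adjusted p = 0.0902). Mlh3, which acts in meiosis and repair, was at -0.05 ± 0.13 (SE) (adjusted p = 0.8). Msh3 and Pms2 values did not overlap between groups. Msh3 was called with the stricter count filter (adjusted p = 0.0416), with halved counts (0.0478) and without control replicate 3 (0.0276).

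**Figure D3:**
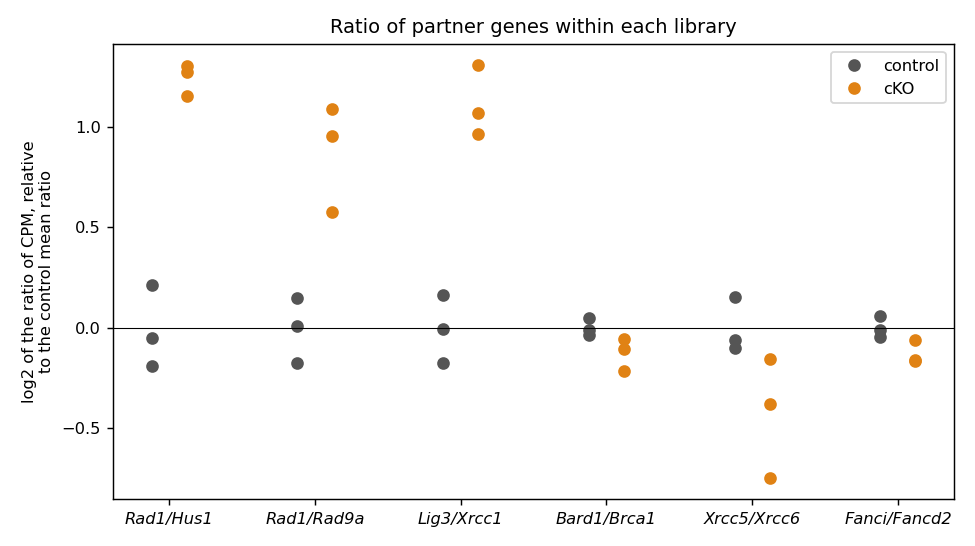
Log2 of the ratio of CPM between partner genes in each library, relative to the mean ratio of the 3 control libraries (y axis), for 6 pairs (x axis). Points are single libraries; Rad1 over Hus1 and Lig3 over Xrcc1 stand furthest above control, and Xrcc5 over Xrcc6 furthest below.

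Of the 43 members, 16 (37.2%) stand head to head with another protein-coding gene whose start site lies within 1000 bp, and in 6 of these 16 pairs both genes had log2 fold changes of 1 sign. Pms2 and Aimp2, which encodes a scaffold of aminoacyl-tRNA synthetases, start 117 bp apart. Aimp2 rose from 27.9 to 49.2 CPM (log2 fold change 0.82, adjusted p = 2.26e-05), while Pms2 had a value of -0.19 (adjusted p = 0.0902). Lig4 and Abhd13, 21 bp apart, were at -0.46 (adjusted p = 0.0356) and -0.01 (adjusted p = 0.919). Chek2 and Hscb, 202 bp apart, were at 0.07 (adjusted p = 0.726) and -0.33 (adjusted p = 0.0142). The whole stretch between the start sites is shown for the Pms2 and Lig4 pairs, a choice made after the values were seen to show short stretches between genes that differ in value, on the member's strand with CCAAT or its reverse complement in capitals:
Pms2 to Aimp2 (chr5:143909848-143909963, plus strand): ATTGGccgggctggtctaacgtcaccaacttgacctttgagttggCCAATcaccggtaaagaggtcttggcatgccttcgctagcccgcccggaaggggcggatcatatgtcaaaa
Lig4 to Abhd13 (chr8:9977687-9977706, minus strand): ttcatgctacggtagcccgt

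The transcript table was used to ask whether a difference was shared by the annotated transcripts of a gene. Of 2990 genes with at least 2 transcripts tested, 41 (1.37%) were called for a change in transcript use, and of the 13 members among them 0 were called by edgeR's diffSpliceDGE (0 at an unadjusted p under 0.05, and 0 by the gene-level F test). Rad1 was nearly all NM_011232, with 97.3, 95.3 and 94.2% of its counts in cKO and 95.1, 96.1 and 93.1% in control. Lig3 had the lowest p (0.0693, adjusted p = 0.875), with NM_010716 at 23.0, 35.9 and 21.9% of its counts in cKO and 64.9, 66.0 and 26.3% in control, so that control replicate 3 was within the cKO range. The Brca2 transcript NM_001081001 held 60.5, 43.4 and 45.1% in cKO and 49.2, 0.821 and 0.411% in control. Control replicate 1 stood apart from the other 2 control libraries in this share.

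The rest of the pathway was called about as often as all genes tested. Of 118 other repair genes listed, 117 had a row and 115 were tested, with 32 lower (27.8%, beside 24.5% of all genes tested), 29 higher (25.2%, beside 24.1%) and 54 not called. Past 1.5-fold were 12 lower (10.4%, beside 10.6% of all genes tested) and 7 higher (6.09%, beside 10.4%). The median log2 fold change was 0.03 and the range -2.28 to 0.97, so that the lowest value lay below that of the members (-0.53) and the highest below that of Rad1 (1.12). By list, lower and higher calls were 2 and 7 of 14 for signaling, 2 and 6 of 31 for homologous recombination, 5 and 3 of 12 for Fanconi anemia, 3 and 0 of 5 for end joining (0 higher at an unadjusted p under 0.05 by edgeR), 9 and 3 of 19 for base excision and single-strand break repair, 2 and 1 of 4 for mismatch repair, 5 and 7 of 20 for nucleotide excision repair, and 4 and 2 of 10 for translesion synthesis.

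Base excision repair held the largest difference among the other repair genes. Neil1, a glycosylase that removes oxidised bases, was at 55.9, 52.1 and 44 CPM in cKO against 258, 268 and 215 CPM in control, 20.5% of control (log2 fold change -2.28 ± 0.1 (SE), adjusted p = 6.20e-07). Mbd4, a glycosylase for mispaired thymine and uracil, was at 29.7, 24.8 and 31.1 CPM in cKO against 64.8, 67.1 and 63.9 CPM in control (log2 fold change -1.19 ± 0.091 (SE), adjusted p = 5.55e-06). Neil3, a glycosylase linked to replication, was at 50.7% of control (log2 fold change -0.98 ± 0.091 (SE), adjusted p = 1.77e-05). None of these 3 overlapped between groups. Ogg1, the glycosylase of 8-oxoguanine, moved the other way, to 169% of control (log2 fold change 0.76 ± 0.1 (SE), adjusted p = 1.85e-04).

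H2afx, the histone variant phosphorylated by ATM at breaks and bound by MDC1, was at 151, 157 and 159 CPM in cKO against 303, 306 and 298 CPM in control, 51.5% of control (log2 fold change -0.96 ± 0.046 (SE), adjusted p = 6.57e-07). Atm and Mdc1 lay within 1.5-fold of control. Polm, a polymerase of end joining, fell to 48.5% of control (log2 fold change -1.04 ± 0.063 (SE), adjusted p = 1.85e-06). Ercc6, of transcription-coupled repair, fell to 55.7% (log2 fold change -0.84 ± 0.064 (SE), adjusted p = 5.46e-06). Polh, the translesion polymerase that also acts in hypermutation, was at 58.7% (log2 fold change -0.77 ± 0.095 (SE), adjusted p = 1.02e-04). Primpol, which reprimes stalled forks, was at 61.2% (log2 fold change -0.71 ± 0.1 (SE), adjusted p = 3.20e-04). Sfr1, a cofactor of recombination, was at 61.2% (log2 fold change -0.71 ± 0.083 (SE), adjusted p = 7.25e-05). Faap24, a partner of the Fanconi core complex, rose to 196% of control (log2 fold change 0.97 ± 0.11 (SE), adjusted p = 4.49e-05). Cdc25a, the phosphatase that CHEK1 turns off, rose to 178% (log2 fold change 0.83 ± 0.086 (SE), adjusted p = 3.34e-05). H2afx, Polm, Ercc6, Polh, Primpol, Sfr1, Faap24 and Cdc25a had no overlap between the groups.

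Repair genes are expressed with the cell cycle, and lists of cycle genes and of p53 targets were read beside them. The S phase list had 4 lower and 5 higher of 22 (18.2% and 22.7%), where 24.5% of all genes tested were lower and 24.1% higher. Its median log2 fold change was 0.04, with Cdt1, a licensing factor, at -0.86 (adjusted p = 2.90e-06). The G2 and M phase list had 13 lower and 1 higher of 18 (72.2% and 5.56%) with a median of -0.44. It was led by Ccnb2 (-1.15), Cenpf (-1.04), Cenpe (-0.90) and Ube2c (-0.78), all with an adjusted p under 0.05. The p53 target list had 4 lower and 7 higher of 16 (25% and 43.8%) with a median of 0.54. It was led by Phlda3 (1.67), Aen (1.47), Zmat3 (1.32) and Ccng1 (1.26). The 4 called lower, named after their values were seen, were Trp53inp1 (-0.61), Bbc3 (-0.58), Btg2 (-0.57) and Sesn2 (-0.23), and Mdm2 was not called (-0.02, adjusted p = 0.81). The mean log2 level of the G2 and M phase list was 6.93 to 6.99 in cKO and 7.30 to 7.46 in control. That of the p53 targets was 5.52 to 5.87 in cKO and 5.27 to 5.33 in control, and that of the S phase list 7.15 to 7.26 in cKO and 7.10 to 7.23 in control. The mean log2 level of the 43 members was 5.23 to 5.24 in cKO and 5.25 to 5.31 in control. The part of cell cycle position in the lower repair transcripts was not tested.

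**Figure D4:**
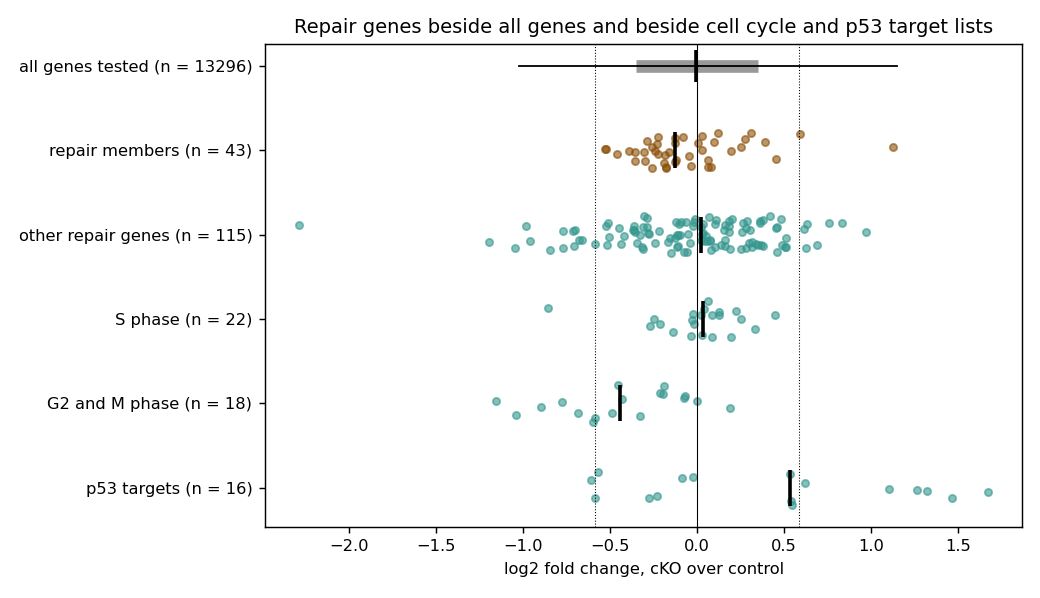
Log2 fold change of cKO over control (x axis) for each gene of the 43 members, the 115 other repair genes and the S phase, G2 and M phase and p53 target lists, with the median of each list as a black tick; for all 13296 genes tested, the thick bar spans the 25th to 75th and the line the 5th to 95th percentile. Dotted lines mark 1.5-fold; the members lie between -0.53 and 1.12, the other repair genes between -2.28 and 0.97.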

How the data were processed

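RNA-seq libraries of sorted YFP+ iGCBs in 3 cKO and 3 control samples, which the study calls biological replicates, were analysed. The deposited tables hold estimated counts for genes and for RefSeq transcripts, which the authors made by aligning reads with HISAT2 to mm10, quantifying with StringTie and exporting with its prepDE script (versions not given in the sources used here). The estimated counts were already whole, so rounding changed nothing.

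Genes were kept by filterByExpr (minimum count of 10), scaled by TMM and tested for cKO against control with edgeR's quasi-likelihood test (edgeR 4.0.16, R 4.3.3), without covariates and with Benjamini-Hochberg adjustment over 13296 genes. A call is an adjusted p under 0.05, and a fold cutoff of 1.5 is named where used. CPM are TMM-scaled. For transcript use, a RefSeq table paired 34674 of 36026 transcripts with genes. These were filtered by filterByExpr and tested with diffSpliceDGE, which left 2990 genes with at least 2 transcripts tested. DESeq2 1.42.0, other scalings and filters, the replicate number as a block, Xist level as a covariate and leaving out each library were alternatives. Gene locations are from GENCODE M21. Figures were drawn with matplotlib 3.10.9.

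The members and all gene lists were chosen with earlier results of these data known. All 43 members are named. Of other repair genes, up to 12 past both cutoffs with no overlap and at least 5 CPM are named by size of change, up to 4 from each cell cycle and p53 list by the same rule, and other genes only where a check or an overlap turns on them. Values of some listed genes are not reported here. The fits were tested on simulated data. A first criterion, on all genes changed 2-fold, was not met, mostly by genes with few counts, and the criterion was then set on deeper genes after this was seen.

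At these depths 3 counts equal 0.0659 to 0.0768 CPM, which covers counting error only. The smallest p of an exact permutation test over 3 against 3 libraries is 0.1.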

Additional observations from a re-analysis of the deposited data

How the results depend on the processing

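Calls of 11 members (Atm, Rad1, Rad50, Rbbp8, Bard1, Brca2, Rad54l, Fanca, Xrcc5, Xrcc1 and Lig3) kept their direction and side of the threshold in all 15 alternatives, and 7 were lost in at least 1 (Brca1, Fanci, Parp2, Lig4, Xrcc2, Parp1 and Blm). In a test against a 1.5-fold change, 0 members were lower and 1 was higher (4.36% and 4.39% of all genes tested), and of the other repair genes 6 were lower and 2 higher. Leaving out 1 library gave 6 (without control replicate 1) to 13 (without control replicate 3) members lower (21.0 to 22.3% of all genes tested), 6 to 8 higher (20.1 to 22.6%), 0 to 1 lower past 1.5-fold (Brca2 without cKO replicate 1, Lig4 without control replicate 3), 1 to 2 higher past 1.5-fold, 24 to 30 other repair genes lower and 26 to 29 higher, and 0 to 1 members called for transcript use (Rbbp8 without cKO replicate 1, Brca2 without control replicate 1). The log2 fold changes that turned were all uncalled: left-out libraries gave -0.0516 to 0.172 (Chek2), -0.0807 to 0.0563 (Palb2), -0.0134 to 0.0853 (Rad54b), -0.0207 to 0.0793 (Xrcc6), -0.198 to 0.0673 (Nhej1), -0.124 to 0.0563 (Mlh3), and Nhej1 was 0.0328 with Xist level in the model (the cause was not tested). With the replicate block, 11 members were lower and 7 higher (23.8% and 23.1% of all genes tested), with Parp1 lost and Xrcc3 gained. Whether the numbers pair the samples cannot be settled from these values. Deviations of same-numbered libraries from their group means correlated at 0.00279, 0.11 and 0.196 across genes, and control replicate 1 correlated best with cKO replicate 2 (0.187). With so few libraries, deviations within a group depend on each other, which limits such correlations. The table holds 1 immunoglobulin chain gene, at 0 counts, so leaving such genes out changed nothing. Agreement under that setting, which is 1 of the 15 alternatives, was therefore fixed in advance. Nhej1, at 2.09 to 2.98 CPM, had the widest standard error (0.24) of the members, and a difference of the size seen in most members was not detectable there.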

Other observations

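Further repair genes that fall outside the rule for named genes were chosen after their values were seen. Msh6, which recognises single mispairs, was at 142, 147 and 132 CPM in cKO and 247, 228 and 210 CPM in control (log2 fold change -0.70, edgeR adjusted p = 2.17e-05). Pms1, of the mismatch repair pathway, was at 15.6, 16.8 and 15.8 CPM in cKO and 9.2, 9.97 and 11.9 CPM in control (log2 fold change 0.63, adjusted p = 0.00158). Ung, the uracil glycosylase that acts in base excision repair and class switching, was at 86.7, 103 and 97.6 CPM in cKO and 61.3, 61.5 and 64.6 CPM in control (log2 fold change 0.62, adjusted p = 5.74e-05). None of these 3 genes overlapped between the groups.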
